A study of Mus musculus with 45 samples.

Results

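The MHC class I antigen presentation machinery was examined through 10 genes in mouse bone marrow-derived macrophages. They are 6 class I heavy chains (H2-K1, H2-D1, H2-Q4, H2-Q6, H2-Q7 and H2-T23), the light chain β2-microglobulin (B2m), both subunits of the peptide transporter (Tap1 and Tap2) and tapasin (Tapbp). The genes were chosen by name and role, with earlier results of these data known but no threshold on measured values, and were matched by symbol in the deposited normalized table and by Ensembl identifier in the deposited count table. All 10 of 10 were found among the 29307 genes of the count table, and all 10 were among the 12905 genes that passed the filter on low counts. The RNA-seq libraries came from C57BL/6N mice of 6 to 10 weeks with Famin alleles p.254I, p.254V or p.284R, 5 mice of each, bred from heterozygotes. FAMIN, encoded by Lacc1, is a purine enzyme. Bone marrow cells were grown for 6 days with M-CSF, then kept for 24 h unstimulated (M0), with interferon-γ plus LPS (M1) or with IL-4 (M2), which gave 9 groups of 5 libraries. All groups therefore share the strain and the M-CSF culture, and the 3 polarizations of 1 replicate number were taken to be cells of 1 mouse, as the sample titles imply.

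MHC class I molecules display peptides from inside the cell to CD8+ T cells. The proteasome cuts proteins into peptides, the TAP1-TAP2 transporter carries them into the endoplasmic reticulum, and tapasin bridges the transporter to empty heavy chain-β2-microglobulin dimers until a fitting peptide binds. H2-K1 and H2-D1 encode the classical heavy chains that present to most CD8+ T cells. H2-Q6 and H2-Q7 encode Qa-2 and H2-T23 encodes Qa-1, non-classical molecules with restricted polymorphism, Qa-1 being a ligand of the inhibitory CD94-NKG2A receptor. Interferon-γ is a classical inducer of these genes, through factors that include IRF1 and the transactivator NLRC5.

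Of the 10 genes, 9 lie in the MHC on mouse chromosome 17 (mm10 coordinates, GENCODE annotation). Tapbp spans 33915899 to 33929292, H2-K1 33996017 to 34000347, Tap1 34187553 to 34197225 and Tap2 34203527 to 34216321. H2-D1 spans 35262730 to 35267499, H2-Q4 35379617 to 35385290, H2-Q6 35424850 to 35430055, H2-Q7 35439155 to 35443773 and H2-T23 36029773 to 36032855. B2m is apart, on chromosome 2 from 122147686 to 122153083. Tap1 starts 211 bases from the start of the immunoproteasome gene Psmb9 and overlaps one of its exons on the opposite strand, and Tap2, Tapbp and H2-Q4 also overlap exons of other genes. Whether counting used strand is not given in the sources used here.

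The promoters of 5 heavy chains carried a shared arrangement, shown here as a description of sequence. All 10 genes rose in M1, those without the arrangement included, and its part in the rise was not tested. In the RefSeq promoter windows (GRCm38.p6, 250 bases before to 50 bases after the start), entries were found for 9 of the 10 genes, Tap2 having none. Only the 250 bases before the start were searched for motifs, in these genes and in all promoters. A κB-like sequence (GGGNNTTCC) was followed after 11 or 12 bases by an interferon regulatory factor core (GAANNGAAA, here on the reverse strand), and capitals mark these matches. Each line gives the coding strand, 5′ to 3′.

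H2-K1: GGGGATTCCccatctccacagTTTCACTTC
H2-D1: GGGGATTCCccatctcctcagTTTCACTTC
H2-Q4: GGGATTTCCcatctccccagTTTCACTTC
H2-Q6: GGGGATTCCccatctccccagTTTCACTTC
H2-Q7: GGGGATTCCcatctccccagTTTCACTTC

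These windows lie on chromosome 17 at 34000429 to 34000458 (H2-K1, minus strand), 35262923 to 35262952 (H2-D1), 35379444 to 35379472 (H2-Q4), 35424677 to 35424706 (H2-Q6) and 35439022 to 35439050 (H2-Q7), the last 4 on the plus strand. They sit upstream of the starts used by RefSeq, although the H2-D1 window falls in an exon of a longer annotated H2-D1 transcript and the H2-Q4 window in an exon of Gm11131. The searched bases of H2-T23, B2m, Tap1 and Tapbp held neither the κB-like sequence nor the interferon regulatory factor core. H2-K1, H2-D1, H2-Q4, H2-Q7, B2m and Tap1 held the letters TGACG, a core of cAMP response elements, and H2-T23 and Tapbp held none of these motifs. The interferon-γ activated site (TTCNNNGAA), found in 7.02% of promoters, was in the searched bases of none of the 9 genes. Searched on both strands, the regulatory factor core was found in 6.31% of 32851 promoters, the κB-like sequence in 4.98% and TGACG in 17.8%. A match describes the letters only, and neither binding nor use of these sites was measured.

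Library totals ran from 17239009 to 43740283 counted reads (median 27553642), so that 1 CPM (counts relative to library size, with trimmed-mean scaling) stood for about 17.2 to 43.7 reads. Macrophage markers summed to between 9532 and 32843 CPM in every library. Their summed level was lower after polarization, with medians of 27465 CPM in M0, 10881 CPM in M1 and 11672 CPM in M2. Lists of B cell, NK cell, erythroid and mast cell markers summed to at most 0.487 CPM in any library, and the T cell genes Cd3e, Cd3d and Trac were at or near 0. Other listed markers moved with polarization. Cd4 had medians of 30.35 CPM in M0, 9.97 CPM in M1 and 5.06 CPM in M2, and the fibroblast list (3 of 3 measured) summed to 15.45 to 83.49, 5.94 to 19.07 and 8.60 to 29.47 CPM. The neutrophil list (5 of 5) summed to 18.80 to 196, 28.48 to 94.43 and 12.70 to 58.12 CPM. The dendritic cell list (4 of 4) summed to 0.459 to 1.62, 5.26 to 11.50 and 3.87 to 12.85 CPM, with Xcr1 at a median of 8.17 CPM in M1 and Zbtb46 at 7.34 CPM in M2. The part of other cells in the class I levels was not tested. Nos2 and Cxcl9 marked M1 and Arg1 and Retnla marked M2, with 1 exception. Library p.254I M1 replicate 5 held 40.8 CPM of Arg1 and 49.1 CPM of Retnla, against at most 0.912 and 0.249 CPM in the other M1 libraries and medians of 1030.0 and 3279 CPM in M2. Lacc1 itself ran from 91.2 to 257 CPM in M0, 218 to 597 CPM in M1 and 56.8 to 199.5 CPM in M2, and the lowest library was a p.284R library each time, as was the highest in M2.

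One M0 library stood apart in the class I genes. In p.254I M0 replicate 4, all 10 genes were at their highest of the 5 libraries of the group, and 9 were at their highest of all 15 M0 libraries. Its Tap1 level was 232 CPM, against 87.1 to 112 CPM in the other 4 libraries of the group. Some genes of the interferon response were high in the same library, with Isg15 at 158 CPM against 20.7 to 32.7 CPM and Nlrc5 at 135 CPM against 51.7 to 63.0 CPM. Irf1 stood less far apart, at 136 CPM against 80.1 to 117 CPM. The part of an interferon response in the class I levels of this library was not tested. Results that rest on this library are given with and without it. The M2 library of the same replicate number in p.254I was also high, with 9 of the 10 genes at their highest of its group. Nlrc5 was at 58.7 CPM there, against 28.5 to 31.5 CPM in the rest of that group. In the M1 library of that number, 1 of the 10 genes was the highest of its group and 3 were the lowest.

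**Figure D1:**
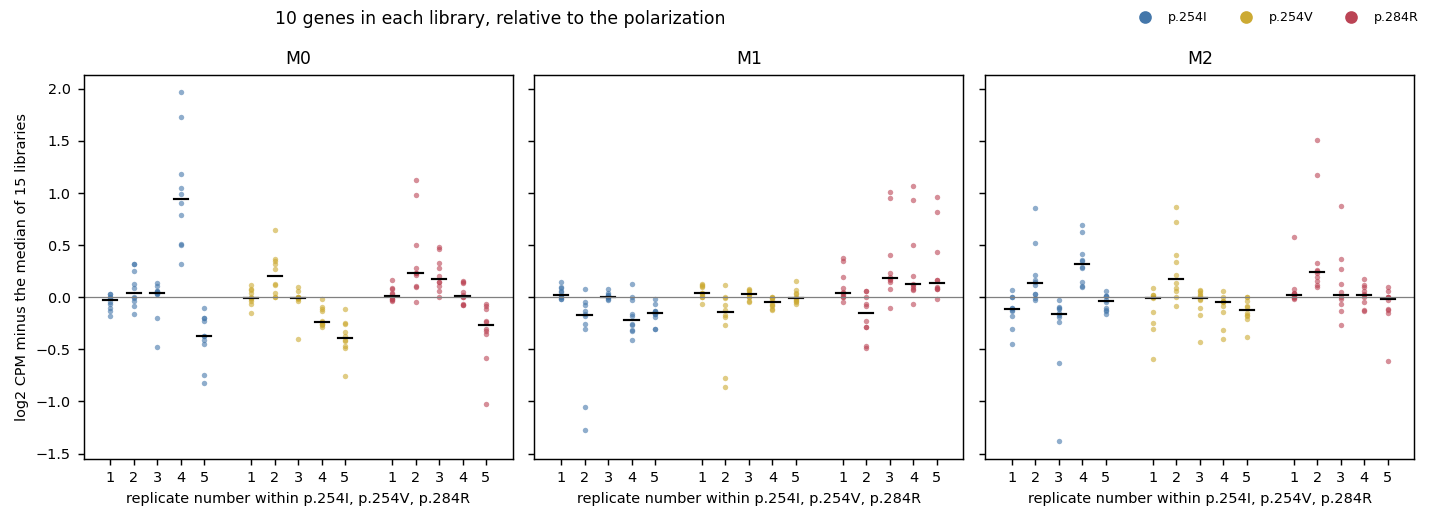
Each point is 1 of the 10 genes in 1 library, as log2 CPM minus the median of the 15 libraries of its polarization, and black bars are medians over the 10 genes. Library p.254I M0 replicate 4 has the highest median of the 45, at 0.94, and number 5 is low in M0 in every genotype.

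The comparison of M1 with M0 addresses how classical activation changes the machinery. Every one of the 10 genes rose in M1, from 1.85-fold for H2-D1 to 19.5-fold for H2-Q6, and the M1 and M0 libraries did not overlap for any of them. Over all genes tested, 37.0% were called higher in M1 and 15.2% had M1 libraries wholly above M0 libraries. The median log2 fold change of the 10 genes was 2.40, beside -0.03 over the 12905 genes tested. All tests are edgeR's quasi-likelihood test over 9 groups, with Benjamini-Hochberg adjustment over all genes and a threshold of 0.05. In bulk RNA, fewer cells of a type and less RNA per cell cannot be told apart.

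The classical heavy chains started high, and with B2m they had the smallest fold changes. H2-K1 ran from 918 to 2161 CPM in M0 with a median of 1254 CPM, and from 3378 to 4899 CPM in M1 with a median of 4169 CPM. The M1 range began above the highest M0 library, and the log2 fold change was 1.66 (SE 0.08, edgeR adjusted p = 5.6e-21). H2-D1 ran from 2335 to 3881 CPM in M0 with a median of 3113 CPM, and from 4804 to 6622 CPM in M1 with a median of 5804 CPM. Its log2 fold change of 0.88 (SE 0.06, edgeR adjusted p = 2.7e-16) was the smallest of the 10, and within single mice the ratio was between 1.24 and 2.35.

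The Qa-2 genes had the lowest M0 levels and the largest fold changes of the 10. H2-Q6 ran from 1.86 to 12.8 CPM in M0 with a median of 3.28 CPM, and from 30.6 to 155 CPM in M1 with a median of 74.0 CPM. Its log2 fold change was 4.28 (SE 0.23, edgeR adjusted p = 1.4e-19), and within single mice the ratio of M1 to M0 was between 4.35 and 65.4. The lowest of these ratios belonged to the p.254I mouse with the high M0 library, without which the log2 fold change was 4.54 (SE 0.21). H2-Q7 ran from 1.49 to 10.05 CPM in M0 with a median of 3.02 CPM, and from 17.1 to 68.7 CPM in M1 with a median of 35.5 CPM, a log2 fold change of 3.44 (SE 0.22, edgeR adjusted p = 1.7e-17). Both genes varied more among M1 libraries than the other members did, by about 5.08-fold between the lowest and highest library for H2-Q6 and 4.01-fold for H2-Q7. H2-Q4, a further heavy chain gene of the Q region, rose from a median of 57.6 CPM (48.5 to 114) to 328 CPM (265 to 462), a log2 fold change of 2.42 (SE 0.10).

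Reads of the heavy chains can be shared. Of the 50-base stretches in the annotated transcripts, the length of a read, 32% of those of H2-Q6, 26.4% of H2-Q7, 21.8% of H2-Q4, 13.6% of H2-T23, 12.8% of H2-D1 and 9.63% of H2-K1 also occurred in transcripts of other genes, against 0 for B2m and 0.442% for Tap1. The split between the heavy chains is therefore uncertain. When the 6 H2-Q genes other than H2-Q4 were summed into 1 feature, the log2 fold change was 3.64 (SE 0.21), and when 20 heavy chain genes were summed it was 1.31 (SE 0.07).

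H2-T23 rose from a median of 191 CPM (138 to 396) in M0 to 1021 CPM (953 to 1121) in M1, a log2 fold change of 2.39 (SE 0.08). B2m, whose protein every class I heavy chain named here needs, ran from 2265 to 5056 CPM in M0 with a median of 2711 CPM, and from 7499 to 9318 CPM in M1 with a median of 8230.4 CPM. Its log2 fold change of 1.56 (SE 0.07, edgeR adjusted p = 7.4e-23) lay between those of H2-D1 and H2-K1.

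The peptide transporter rose by more than the classical heavy chains, B2m and tapasin, and by less than H2-Q6 and H2-Q7. Tap1 ran from 81.4 to 232 CPM in M0 with a median of 102 CPM, and from 845 to 1045 CPM in M1 with a median of 962 CPM. Its log2 fold change of 3.11 (SE 0.10, edgeR adjusted p = 8.0e-28) was the third of the 10 in size. Tap2 rose from a median of 69.5 CPM (64.3 to 97.9) to 471 CPM (386 to 541), a log2 fold change of 2.70 (SE 0.05). Tapbp rose from a median of 398 CPM (299.9 to 567) to 1696 CPM (1417 to 1903), a log2 fold change of 2.11 (SE 0.06). Leaving out library p.254I M1 replicate 5, which held M2 marker RNA, gave 3.12, 2.71 and 2.12 for these 3 genes, and all 10 genes were still called.

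**Figure D2:**
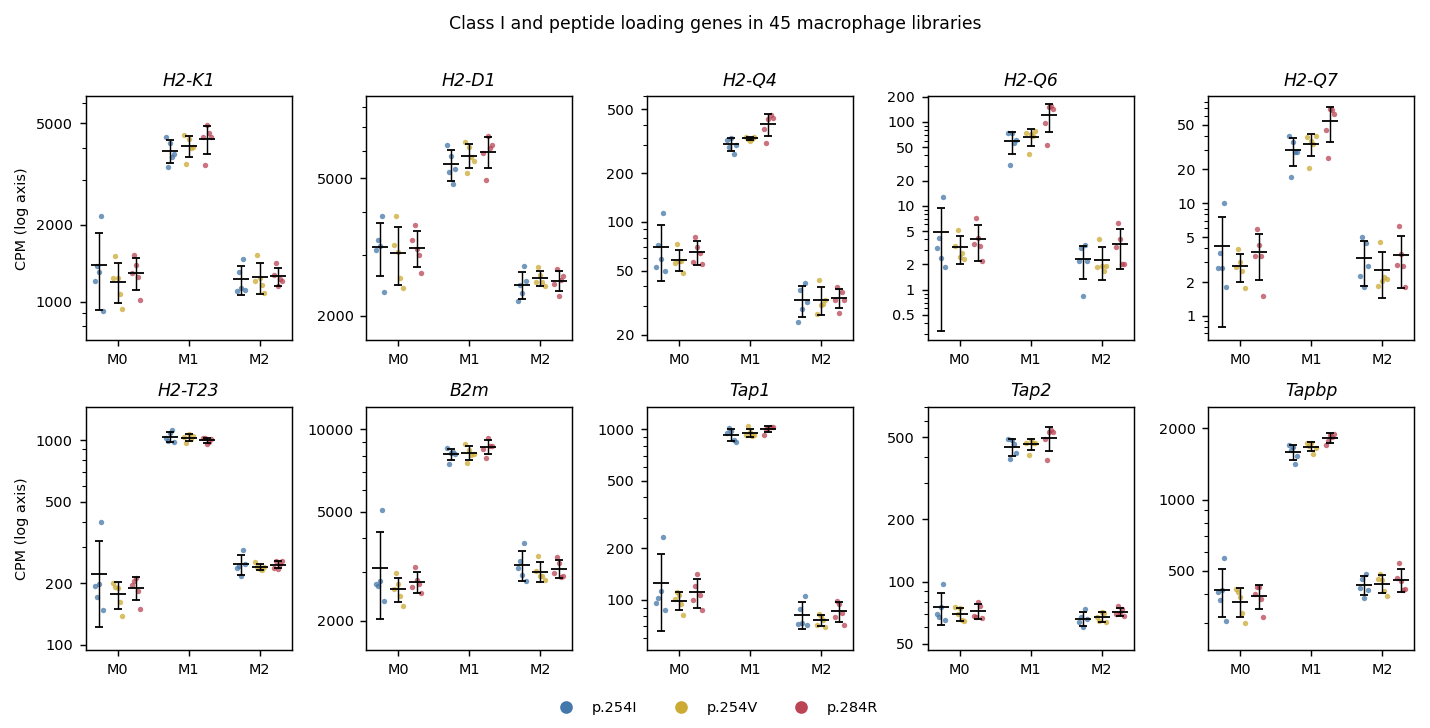
CPM on a log axis of each gene in each library (points), by polarization and Famin genotype, with the mean and SD of the 5 libraries of a group in black. The M1 libraries lie above the M0 and M2 libraries for every gene, and p.284R M1 libraries reach 155 CPM for H2-Q6.

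M2 polarization with IL-4, compared with the same M0 libraries, moved the same genes little and in both directions. H2-Q4, Tap1, H2-Q6 and H2-D1 fell, H2-T23 and Tapbp rose, and H2-K1, H2-Q7, B2m and Tap2 did not pass the test. Beside these 4 that fell and 2 that rose, 39.6% of all genes tested were called lower in M2 and 36.8% higher. The median log2 fold change of the 10 genes was -0.13, beside -0.03 over all genes tested.

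H2-Q4 fell by 0.95 on the log2 scale (SE 0.09, edgeR adjusted p = 1.3e-11). Its M2 libraries, from 24.04 to 43.7 CPM with a median of 32.8 CPM, lay wholly below the M0 libraries, whose lowest was 48.5 CPM. It was the 1 gene of 10 without overlap in this comparison, and 9.78% of all genes had M2 libraries wholly below M0. Tap1 fell by 0.46 on the log2 scale (SE 0.09, edgeR adjusted p = 2.5e-05), with 69.7 to 105 CPM in M2 (median 78.8 CPM), and it was lower in M2 in 15 of 15 mice. H2-D1 fell by 0.31 (SE 0.06, edgeR adjusted p = 3.0e-05) and was lower in 13 of 15 mice, with 2209 to 2787 CPM in M2 (median 2504 CPM).

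H2-T23 rose by a log2 fold change of 0.33 (SE 0.08, edgeR adjusted p = 3.5e-04) to 216 to 291 CPM (median 239 CPM), and it was higher in 14 of 15 mice. Tapbp rose by 0.19 (SE 0.06, edgeR adjusted p = 0.0055) to 385 to 541 CPM (median 454 CPM), and it was higher in 13 of 15 mice. Both ranges overlapped those of M0.

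Some of the M2 values turned on the mouse or on the single high M0 library. H2-Q6 passed the threshold with a log2 fold change of -0.59 (SE 0.25, edgeR adjusted p = 0.0341), with 0.837 to 6.19 CPM in M2 (median 2.18 CPM). With the mouse as a block it was -0.55 (adjusted p = 0.075), and without library p.254I M0 replicate 4 it was -0.33 (adjusted p = 0.173), so the call was lost. B2m ran from 2779.6 to 3836 CPM in M2 (median 2983 CPM), a log2 fold change of 0.14 (SE 0.07, edgeR adjusted p = 0.0674). With the mouse as a block B2m was called at 0.15 (adjusted p = 0.017), and without the high library it was called at 0.22 (adjusted p = 2.9e-05). H2-K1, H2-Q7 and Tap2 had log2 fold changes of -0.06 (SE 0.08), -0.19 (SE 0.23) and -0.07 (SE 0.05).

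The M1 libraries also lay wholly above the M2 libraries for all 10 genes, and all 10 were called, beside 39.0% of all genes called higher and 17.6% of all genes with M1 libraries wholly above M2 (18.1% wholly below). The log2 difference between M1 and M2 ran from 1.19 for H2-D1 to 4.87 for H2-Q6, and H2-Q4 reached 3.37 (SE 0.10), having risen in M1 and fallen in M2.

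Levels of different genes were compared per kilobase of exon (CPM divided by the union of annotated exons). In every polarization B2m was highest, followed by H2-D1 and H2-K1, and the ranges of these 3 did not overlap. In M0 the medians were 3152 for B2m, 1207 for H2-D1, 427 for H2-K1, 109.7 for Tapbp, 66.3 for H2-T23, 22.2 for H2-Q4, 18.7 for Tap1 and 18.4 for Tap2, in CPM per kilobase. H2-Q6 and H2-Q7 closed the list with 1.58 and 0.709 CPM per kilobase. The neighbours Tapbp and H2-T23, H2-Q4 and Tap1, Tap1 and Tap2, and H2-Q6 and H2-Q7 overlapped between libraries in M0. Tapbp was above H2-T23 in 15 of 15 libraries all the same, whereas Tap1 was above Tap2 in 8 of 15.

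In M1, Tap1 passed H2-Q4 in this order, at 176 CPM per kilobase beside 126 for H2-Q4 and 125 for Tap2. In M2 it fell to the level below Tap2, at 14.4 beside 18.0 CPM per kilobase. The ratio of Tap1 to Tap2 per kilobase was accordingly 1.00 in the median M0 library (0.874 to 1.64), 1.35 in M1 (1.29 to 1.80) and 0.784 in M2 (0.722 to 0.988). The M2 range did not overlap that of M1. Per kilobase of coding sequence, Tap1 was instead above Tap2 in M2, at 36.3 beside 32.4, so the order of neighbours depends on the length used, while the change between polarizations does not.

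The make-up of the heavy chains shifted with polarization. H2-D1 held a median of 69.9% of the summed CPM per kilobase of the 6 chains in M0, 53.5% in M1 and 65.5% in M2, while H2-K1 held 24.9%, 33.7% and 28.0%. H2-T23 went from 3.87% in M0 to 8.54% in M1 and 5.73% in M2. H2-Q4, H2-Q6 and H2-Q7 together held 1.55% in M0, 4.08% in M1 and 0.966% in M2, and their M1 range of 3.59 to 5.93% lay wholly above both others. The ratio of B2m to the 6 chains was 1.85 in M0 (1.63 to 2.42), 2.27 in M1 (2.22 to 2.63) and 2.37 in M2 (2.21 to 2.76). These shares are descriptions, and they depend on the exon lengths used and carry the uncertainty of shared reads.

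**Figure D3:**
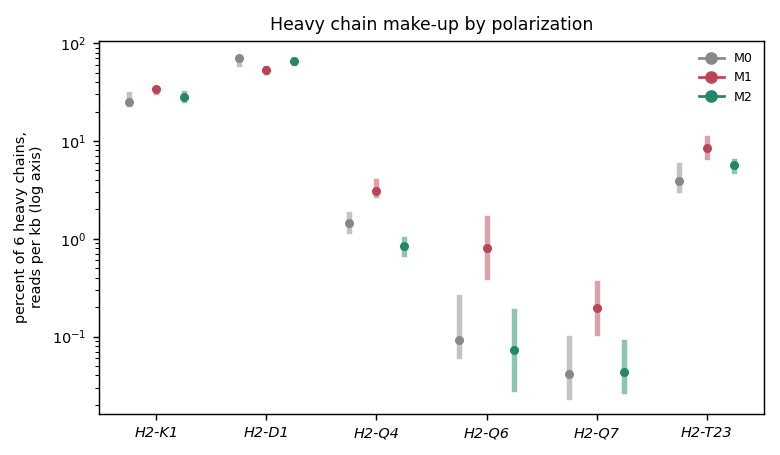
Share of each heavy chain in the summed CPM per kilobase of the 6 heavy chains, in percent on a log axis. Points are medians and bars run from the lowest to the highest of 15 libraries. H2-D1 gives way to H2-K1, H2-T23 and the H2-Q genes in M1.

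Beyond the 10 genes, 39 further genes of the class I pathway were listed, with earlier results of these data known. Of these, 36 were in the count table and 31 passed the filter. In M1, 26 of the 31 rose, 2 fell and 3 did not pass (median log2 fold change 1.63), beside 37.0% of all genes called higher and 40.3% lower. In M2, 10 rose, 13 fell and 8 did not pass, with a median of -0.14. These M2 shares of the list are near those of all genes, 36.8% higher and 39.6% lower.

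The immunoproteasome, an alternative proteasome that cuts peptides suited to class I grooves, rose as a whole in M1. Psmb8 had a log2 fold change of 2.65 (SE 0.06), Psmb9 2.53 (SE 0.06) and Psmb10 2.44 (SE 0.05), and the genes of the PA28 activator, Psme1 and Psme2, had 2.07 (SE 0.05) and 2.49 (SE 0.06). In M2, 4 of these 5 rose and 1 fell, beside 36.8% of all genes called higher and 39.6% lower. Psmb10 reached 1.21 (SE 0.05), Psme2 0.61 (SE 0.06), Psme1 0.39 (SE 0.05) and Psmb8 0.34 (SE 0.05), while Psmb9, the neighbour of Tap1, fell by 0.19 (SE 0.06) as Tap1 did. Psmb9 and Tap1 share exon sequence on opposite strands, so their reads may not be fully separate.

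Among the regulators, Irf1 rose by 3.75 on the log2 scale (SE 0.07) in M1 and Nlrc5, the class I transactivator, by 2.70 (SE 0.11). In M2 Nlrc5 fell by 0.92 (SE 0.11, edgeR adjusted p = 5.2e-10) and was lower in 15 of 15 mice. Irf1 was at 0.07 (SE 0.07). Nlrc5 ran from 46.8 to 135 CPM in M0, 342 to 516 CPM in M1 and 28.5 to 58.7 CPM in M2.

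All 5 genes of the loading complex, chaperones and trimming rose in M1, led by the tapasin homologue Tapbpl (3.19, SE 0.06), and 4 of 5 rose in M2. Of the 10 further MHC heavy chains tested, 9 rose in M1, H2-Q5 by 2.52 (SE 0.16). In M2, H2-M2 rose by 1.08 (SE 0.32) and 4 fell. Over all genes, 37.0% were called higher in M1, and 36.8% higher and 39.6% lower in M2. These heavy chains can share reads too. H2-T22 shared 31.2% of its 50-base stretches with H2-T10, and H2-Q5 and H2-Q10 shared 25.5% and 14% of theirs with H2-Q7. Their rises may therefore not be separate. Outside the MHC, Cd1d1, which presents lipids to NKT cells, rose by 2.73 (SE 0.08) in M1 and fell by 0.70 (SE 0.08) in M2. Fcgrt, the neonatal Fc receptor heavy chain, fell by 1.61 (SE 0.17) in M2 and was not called in M1 (0.26, SE 0.17).

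**Figure D4:**
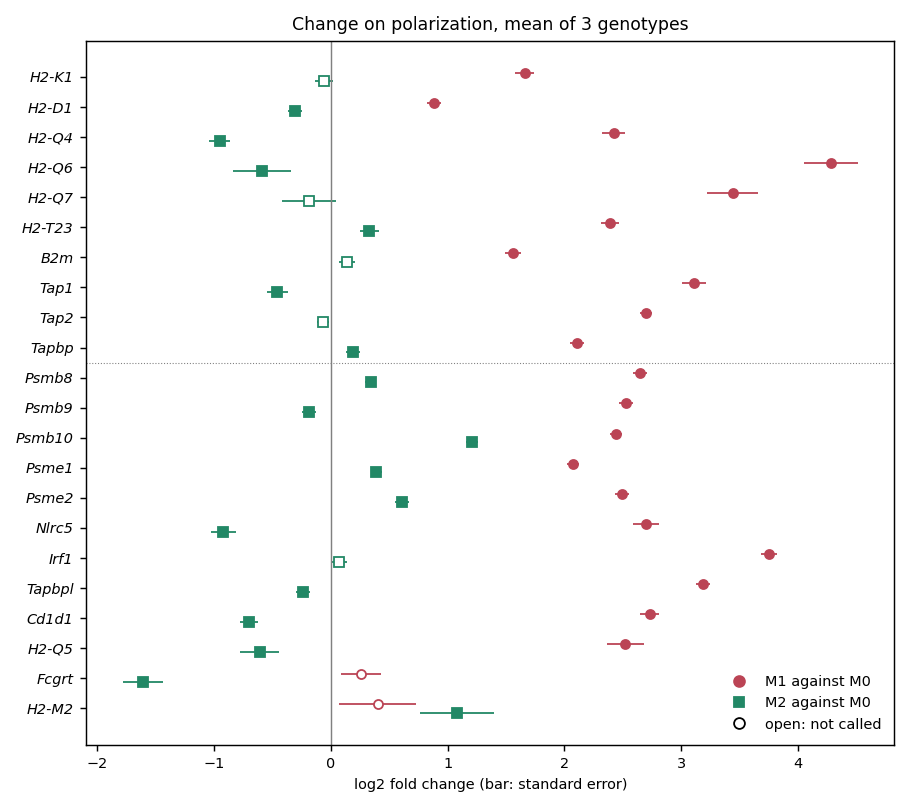
Log2 fold change against M0, with its standard error, for M1 (circles) and M2 (squares), averaged over the 3 genotypes, with open symbols for genes not called. The 10 genes stand above the dotted line and named pathway genes below it. M1 values of the 10 genes run from 0.88 to 4.28 and M2 values from -0.95 to 0.33.

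Across the 9 group means of log2 CPM (with 0.1 added), the genes outside these lists most like the median profile of the 10 were Gm49342, Dusp28, Tmem173, Nampt and D130043K22Rik, at root mean square distances of 0.06, 0.06, 0.07, 0.10 and 0.11. Tmem173, which encodes STING, went from a median of 48.3 CPM in M0 to 261 CPM in M1 and 51.5 CPM in M2. D130043K22Rik had a median of 0 in M0 and M2 and 0.533 CPM in M1, so its place rests on the 0.1 added. Of the 10 genes themselves, Tap2 and H2-T23 were nearest to the median profile, at 0.15 and 0.17, and H2-Q6 was farthest, at 1.08.

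The comparisons between Famin alleles address whether the enzyme's variants alter the machinery. In the fit over 45 libraries none of the 10 genes was called in any genotype comparison, whether averaged over polarizations, within one or as a difference in response. At an unadjusted p under 0.05 there were 3 for p.284R against p.254I in M1 (H2-Q4, H2-Q6 and H2-Q7), beside 6.70% of all genes, and 2 for the difference in their M1 response (H2-Q4 and H2-Q6), beside 2.76%. There were 2 for p.284R against p.254V (H2-Q6 and H2-Q7) both averaged and in M1, beside 4.70% and 6.19%, and 3 for p.254V against p.254I in M0 (B2m, H2-T23 and Tap1), beside 1.79%. The other genotype comparisons had 0. Without library p.254I M0 replicate 4 these counts became 4, 0, 4, 3 and 0, beside 7.07%, 2.46%, 5.13%, 6.49% and 0.693% of all genes. The count of p.284R against p.254I averaged over polarizations went from 0 to 5, beside 4.28% of all genes. DESeq2 and limma-voom also called none of the 10 genes. Under other tools, scalings, filters and blocks, 1 to 64 of all genes were called for p.284R against p.254I in M1. For p.284R against p.254V in M1 there were 0 to 36. In the fit over 45 libraries, 0.0155% of all genes tested were called for p.284R against p.254I and likewise for p.254V against p.254I, 0.263% for p.284R against p.254I in M1, 0.00775% for the same alleles in M2, 0.0775% for p.284R against p.254V in M1 and 0 in the other genotype comparisons and in the differences of response.

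Averaged over polarizations, the log2 difference of p.284R from p.254I ran from -0.10 for H2-T23 (SE 0.08) to 0.45 for H2-Q6 (SE 0.23), and that of p.254V from p.254I from -0.25 for H2-Q7 (SE 0.22) to 0.03 for H2-D1 (SE 0.06). Without library p.254I M0 replicate 4 the p.284R differences ran from 0.01 for H2-T23 (SE 0.05) to 0.70 for H2-Q6 (SE 0.21, edgeR adjusted p = 0.599). With all libraries, H2-K1 differed by 0.03 (SE 0.08, an approximate 95% interval of -0.13 to 0.19) in p.284R and B2m by -0.04 (SE 0.07).

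In M0 all 10 differences of p.284R from p.254I were below 0, from -0.23 to -0.01, and so were those of p.254V, from -0.60 to -0.06. Without the single library p.254I M0 replicate 4 they ran from 0.05 to 0.51 for p.284R and from -0.02 to 0.15 for p.254V. The direction in M0 thus rested on that library. For B2m its 5056 CPM stood beside 2711, 2687, 2791 and 2353 CPM in the other p.254I M0 libraries, 2602, 2974, 2711, 2470.5 and 2265 CPM in p.254V and 2646, 3139, 2821, 2719 and 2515 CPM in p.284R. The response of H2-Q6 to M1 was larger in p.284R than in p.254I by 1.25 on the log2 scale (SE 0.53, edgeR adjusted p = 1.000), and without this library by 0.51 (SE 0.48). For H2-Q4 the corresponding values were 0.51 (SE 0.23) and 0.26 (SE 0.19).

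In M1 the Qa-2 genes were higher in p.284R within every replicate number. H2-Q6 measured 96.0, 53.5, 149, 155 and 144 CPM in p.284R replicates 1 to 5, 74.0, 30.6, 74.0, 55.9 and 60.3 CPM in p.254I, and 74.2, 40.9, 71.4, 68.4 and 77.6 CPM in p.254V. The groups overlapped through p.284R replicate 2, while within each number the p.284R value was the highest of the 3 genotypes. H2-Q7 measured 45.1, 25.2, 68.7, 67.6 and 62.5 CPM in p.284R, 39.3, 17.1, 34.9, 28.5 and 28.8 CPM in p.254I, and 38.6, 20.8, 35.5, 33.9 and 39.8 CPM in p.254V, and p.284R was again the highest of the 3 within each number.

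Without regard to the number, H2-Q6 differed between p.284R and p.254I in M1 by 1.02 on the log2 scale (SE 0.34, unadjusted p = 0.0050, edgeR adjusted p = 0.377). In the same kind of fit, the summed H2-Q genes other than H2-Q4 differed by 0.91 (SE 0.32, edgeR adjusted p = 0.400). The sum of all 20 heavy chain genes differed by 0.14 (SE 0.12, edgeR adjusted p = 0.932). Libraries with the same number deviated together across genotypes in M1 (15 of 15 correlations above 0.1), which pairs them by a rule on the data rather than by the labels. In a fit of the 15 M1 libraries with the replicate number as a block, chosen after seeing the data, 4 of the 10 genes were called higher in p.284R than in p.254I, beside 2.29% of 11925 genes tested. They were H2-Q6 at 0.99 (SE 0.15, edgeR adjusted p = 0.0128), H2-Q7 at 0.83 (SE 0.14, adjusted p = 0.0187), H2-Q4 at 0.41 (SE 0.09, adjusted p = 0.0274) and Tapbp at 0.20 (SE 0.05, adjusted p = 0.0368). H2-Q6 shared 12.3% of its 50-base stretches with H2-Q4 and 13.9% with H2-Q7, so the calls of these H2-Q genes may not be separate. H2-K1 was at 0.15 (SE 0.05, adjusted p = 0.0846) and H2-T23 at -0.06 (SE 0.05, adjusted p = 0.530). Against p.254V the fit called H2-Q6 at 0.80 (SE 0.15, edgeR adjusted p = 0.0226) and H2-Q7 at 0.64 (SE 0.14, adjusted p = 0.0383), beside 2.31% of genes called higher. p.254V against p.254I called 0 genes, with H2-Q6 at 0.19 (SE 0.15), and 0 of the 10 genes reached an unadjusted p under 0.05.

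These calls depended on single numbers. Leaving out numbers 1, 2, 3, 4 and 5 in turn left 5, 3, 1, 0 and 0 of the 10 genes called for p.284R against p.254I, and the log2 difference of H2-Q6 stayed between 0.87 and 1.15. The same fit within M0 and within M2 called 0 of the 10 genes, for both alleles against p.254I. For these fits and those leaving out a number, the share of all genes called is not given here. A loss of calls particular to the 10 genes can therefore not be told from a general one. Of 31 pathway genes in the M1 fit, H2-M2 (1.18, SE 0.20) and H2-Q5 (0.43, SE 0.11) were called higher in p.284R than in p.254I, and Fcgrt (-0.38, SE 0.07), Hfe (-0.27, SE 0.06) and Mr1 (-0.17, SE 0.04) lower, beside 2.29% of all genes called higher and 1.58% lower. Hfe and Mr1 were named after their values were seen. Of the 50-base stretches of H2-Q5, 36.4% occurred in other genes and 25.5% in H2-Q7, so its call may not be separate from that of H2-Q7.

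The M1 markers Nos2 and Cxcl9 moved with the Qa-2 genes across most of these libraries, though Cxcl9 was higher in p.254V than in p.284R at number 1. Nos2, which encodes inducible nitric oxide synthase, measured 25.6, 8.60, 81.5, 149 and 131 CPM in p.284R replicates 1 to 5, 19.0, 3.01, 26.0, 18.4 and 19.7 CPM in p.254I, and 19.2, 4.92, 17.8, 19.9 and 20.9 CPM in p.254V. Cxcl9, an interferon-induced chemokine gene, measured 3350.0, 1777, 5339.9, 4723 and 5125 CPM in p.284R, 3349, 979, 3485, 1339 and 3181 CPM in p.254I, and 3659, 1367, 3262, 3009.9 and 2929 CPM in p.254V. The same 3 p.284R libraries, replicates 3 to 5, were highest in both. These libraries were also highest for the M1 marker Ptgs2, at 128, 138 and 172 CPM. At number 1, however, Ptgs2 was lower in p.284R (46.4 CPM) than in p.254I (61.8 CPM) and p.254V (65.4 CPM). The whole M1 marker list, 4 of 4 genes measured, summed to between 1013 and 5549 CPM in M1, with Il12b at or near 0 throughout. The part of the strength of M1 activation in the H2-Q values was not tested.

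**Figure D5:**
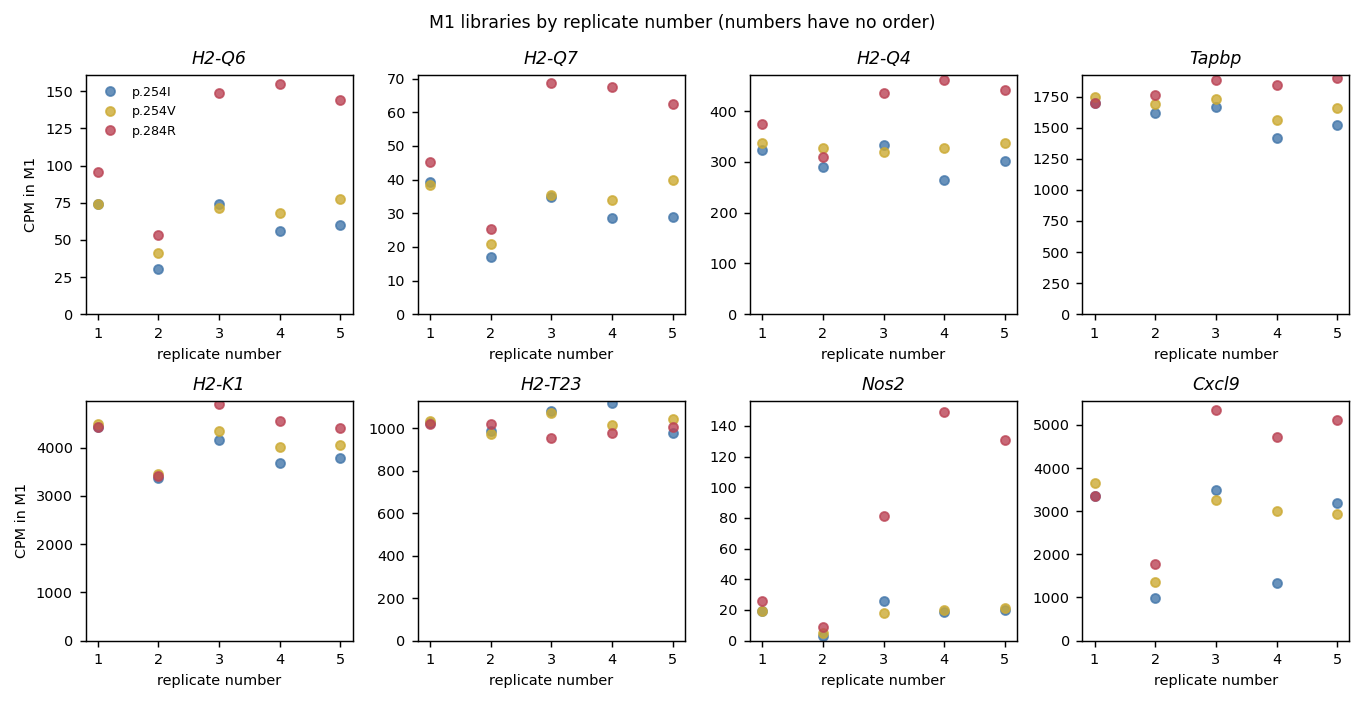
CPM in the M1 libraries, on linear axes from 0, by replicate number and Famin genotype, for H2-Q6, H2-Q7, H2-Q4, Tapbp, H2-K1 and H2-T23 and the M1 markers Nos2 and Cxcl9. H2-Q6 and H2-Q7 are highest in p.284R at each of the 5 numbers, number 2 is low in all 3 genotypes for H2-Q6, H2-Q7, H2-K1, Nos2 and Cxcl9, and H2-T23 stays between 953 and 1121 CPM.

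The replicate numbers themselves ordered the class I genes. In M0, number 5 was the lowest of its 5 libraries for all 10 genes in all 3 genotypes. In M1, number 2 was the lowest in all 3 genotypes for 5 of the 10 genes (H2-K1, H2-Q6, H2-Q7, B2m and Tap2), but in none of the 3 for Tap1 and Tapbp. Tap2 measured 392, 411 and 386 CPM at number 2, against 420.1 to 541 CPM at the others, while Tap1 measured 1014, 1045 and 1004 CPM there, against 845 to 1034 CPM at the others. What the number stands for is not given in the sources used here, and libraries that share it may share a culture day or a lane.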

How the data were processed

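RNA was sequenced from 45 libraries of 15 mice (stranded mRNA kit, single-end 50-base reads, 11 libraries per lane). The submitters' processing notes name FastQC, Trim Galore, HISAT2, limma and mm10, whereas the series' design text names Cutadapt and STAR. Which aligner made the counts, and so how reads shared by heavy chains were placed, is unresolved. The counting tool and its use of strand are not given in the sources used here. The authors deposited raw counts for 29307 genes and CPM for 11900 genes. The deposited CPM values corresponded to whole reads in 100% of cases (within 0.01 reads), equal to the counts in 100%. Library totals were 17239009 to 43740283 reads. No pair of libraries held identical values.

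Counts of genes passing filterByExpr (12905) were scaled by TMM (factors 0.939 to 1.1) and fitted with edgeR 4.0.16 (R 4.3.3), robust quasi-likelihood, with 9 groups of 5. p-values were adjusted by Benjamini-Hochberg over all genes (threshold 0.05) and measure the spread between libraries within groups. This fit held no term for the mouse and treated the libraries of 1 mouse as independent. That includes the genotype comparisons averaged over polarizations. DESeq2 1.42.0, limma-voom (limma 3.58.1), other scalings, filters and blocks, and leaving out each mouse were alternatives. Scripts were tested on simulated data. Coordinates, lengths and shared 50-base stretches are from GENCODE. Standard errors are of log2 values.

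Same-numbered libraries deviated together across genotypes (correlations over 8404 genes above 0.1 in 15 of 15 pairs in M0 and in M1, 13 of 15 in M2), and libraries of 1 mouse across polarizations in 37 of 45. Mouse numbers come from the titles. The genes and lists were chosen with earlier results of these data known. Pathway genes named are those called with an absolute log2 fold change of at least 1 against M0, up to 8 per comparison by size, plus Nlrc5 and the immunoproteasome genes. A gene that this rule would name is not reported here.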

Additional observations from a re-analysis of the deposited data

Results flagged for a closer look

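In 90 groups of 5 libraries (10 genes in 9 groups), 11 had 1 library far from the other 4 by Dixon's test. The threshold would flag about 1 in 20 independent groups by chance. The 10 genes were measured in the same 45 libraries, so the groups are not independent and the count cannot be set against that rate. Of the 11, 5 were in library p.254I M0 replicate 4. There H2-Q6 was 12.8 CPM (others 1.86 to 4.09), H2-Q7 10.05 CPM (1.80 to 3.60), H2-T23 396 CPM (148 to 198), B2m 5056 CPM (2353 to 2791) and Tap1 232 CPM (87.1 to 112).

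In p.254V replicate 2, H2-Q6 was low in M1 at 40.9 CPM (others 68.4 to 77.6) and high in M2 at 3.98 CPM (1.65 to 1.94). H2-Q7 was likewise high in M2 of that mouse, at 4.54 CPM (1.84 to 2.22), and Tap2 was low in its M1 library, at 411 CPM (469.9 to 482). The other 2 were H2-T23 in p.254V M2 replicate 1, at 255 CPM (233 to 239), and Tap1 in p.284R M1 replicate 1, at 927 CPM (1004 to 1034).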

How the results depend on the processing

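The number of the 10 genes called for M1 against M0, M2 against M0 and M1 against M2 stayed within 1.5 times its reported value under all 27 alternatives run for each. For M2 against M0, leaving out library p.254I M0 replicate 4, an alternative chosen after seeing the data, turned H2-K1 to 0.02 and H2-Q7 to 0.03 on the log2 scale, neither called before or after; leaving out single libraries or mice gave -0.08 to 0.02 and -0.26 to 0.03. In the 9-group fit the replicate block by number called 0 of the 10 genes between genotypes. For that fit alone, and for the fits below that leave out a number, the share of all genes called is not given here. Their counts can therefore not be read as particular to the 10 genes. The replicate block within M1, also chosen after seeing the data, called 4 genes for p.284R against p.254I (5, 3, 1, 0 and 0 leaving out numbers 1 to 5) and 2 for p.284R against p.254V (0 to 2). Over all genes, p.284R against p.254I in M1 had 34 calls, 1 to 64 under other tools, scalings, filters and blocks, 0 to 109 leaving out a mouse (0 without p.284R replicate 5, 1 without its replicate 3 or 4) and 461 in that block, where p.284R against p.254V had 538 instead of 10. Averaged over polarizations, p.284R against p.254I had 2 calls, with 1 to 11 under other tools, scalings, filters and blocks and 2 to 19 leaving out a mouse. Levels per coding length differed from those per exon length for all genes. Depth limits H2-Q6 and H2-Q7 most outside M1, where 1 CPM is 17.2 to 43.7 reads.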
